A study of Mus musculus with 9 samples.

Results

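Potassium channel genes were taken as every gene whose symbol begins with Kcn in the deposited mouse cortex tables. There were 99 of them among 52550 genes: 94 protein-coding genes in 21 families, here placed in 5 classes, and 5 noncoding transcripts named after a neighbouring channel gene. All samples were cerebral cortex of male C57BL/6N mice aged 9 to 12 weeks, with 3 libraries per group. The knockdown mice (replicates 2, 3 and 4) received locked nucleic acid antisense oligos against the enhancer RNA eRNA_06347 through the lateral ventricles, followed by middle cerebral artery occlusion (MCAO, a filament model of stroke) for 1 h and reperfusion for 6 h, and the infarcted cortex was taken. The control oligo mice (replicates 1, 2 and 3) received a negative control oligo and the same MCAO and reperfusion. The sham mice (replicates 1, 2 and 3) had the neck surgery without a filament. No oligo is named for them, and their libraries were made before, in another experiment of that laboratory, so that surgery, oligo and data set cannot be told apart in any comparison with sham. The sources used here give no sequence for the oligos, and the level of eRNA_06347 was not analysed here.

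Potassium channels let potassium leave the cell along its gradient and thereby set the resting potential, end the action potential and limit repetitive firing. Voltage-gated channels open on depolarization, calcium- or sodium-activated channels open when those ions accumulate inside the cell, and inward rectifiers and two-pore channels carry resting current. Auxiliary subunits form no pore and change the gating or surface delivery of pore-forming ones. In ischemic cortex, energy failure depolarizes cells and potassium accumulates outside them, and astrocytes take part of it up through inward rectifiers.

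Levels are in TPM, a share of the library's transcripts that is corrected for transcript length, so that genes can be compared within a library. Of the 99 genes, 77 reached 1 TPM in at least 3 of the 9 libraries and were tested, and 22 did not. The tested genes are therefore not all members, and a gene seen in 1 group only could pass through that group. The files hold no read counts, so depth is unknown beyond the assigned bases, which came to 4.40 to 4.83 gigabases under knockdown, 4.48 to 4.92 under control oligo and 2.70 to 2.87 in sham. Mitochondrial transcripts held 22.6 to 28.1% of TPM under knockdown and 24.8 to 28.9% under control oligo, against 0.277 to 0.577% in sham. Nuclear protein-coding genes held 57.0 to 63.9% under knockdown, 54.7 to 61.0% under control oligo and 30.6 to 34.2% in sham. The median gene was 0.561 higher under control oligo than in sham on the log2(TPM + 1) scale, and 0.613 higher under knockdown. Excitatory neuron markers summed to 1194 to 1432 TPM under knockdown, 1140 to 1413 TPM under control oligo and 488 to 590 TPM in sham, and all 5 were detected in the tissue labelled cortex, as were 5 markers of striatum at 109 to 229, 181 to 193 and 57.7 to 72.7 TPM in the same order. Counts against sham are therefore given also after median-ratio scaling, which divides a library by the median of its genes' ratios to their average and brought these medians to 0.010 and 0.014. A gene called against sham and described with its TPM change alone also passed after scaling, in the same direction.

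The Kcn genes together held 2374, 1976 and 1710 TPM in the knockdown libraries, 2066, 2269 and 1859 TPM in the control oligo libraries and 1648, 1615 and 1482 TPM in the sham libraries. Within that total, voltage-gated channels held 29.5 ± 2.35% under knockdown, 30.9 ± 1.37% under control oligo and 46.8 ± 1.96% in sham (SD, n = 3 each). Auxiliary subunits held 37.3 ± 2.70% under knockdown, 35.2 ± 1.44% under control oligo and 23.6 ± 1.61% in sham. These shares do not depend on the scaling of a library, and for both classes the sham libraries lay apart from all 6 MCAO libraries. Inward rectifiers held 18.3 ± 0.869% under knockdown, 18.4 ± 0.979% under control oligo and 12.8 ± 0.221% in sham, again without overlap. Two-pore channels held 8.50 ± 0.490, 8.19 ± 0.140 and 7.07 ± 0.168% in the same order of groups, and calcium- or sodium-activated channels 6.00 ± 1.41, 6.91 ± 0.989 and 9.36 ± 0.123%. No test was run on these sums.

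**Figure D1:**
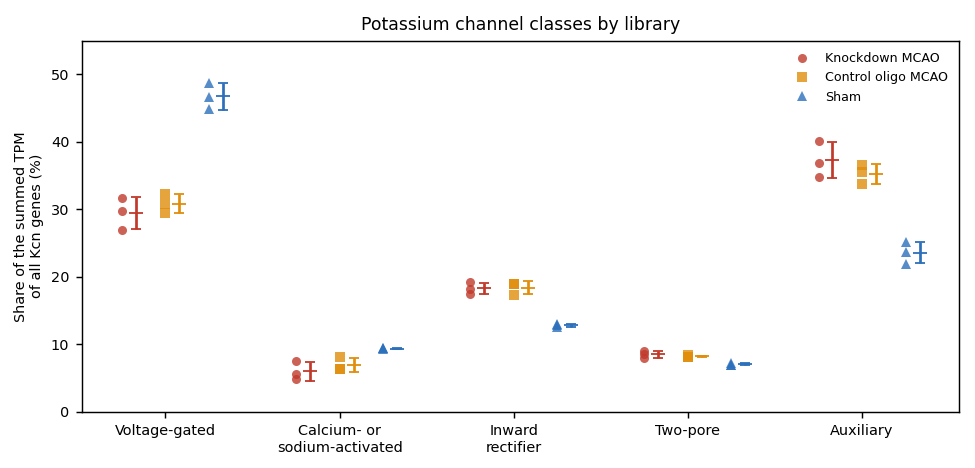
Share of the summed TPM of all 99 Kcn genes (percent, vertical axis) held by each class (horizontal axis) in each library, with bars for the mean and SD of 3 libraries. In the voltage-gated class the 3 sham libraries lie between 44.8 and 48.8%, above the knockdown libraries at 26.9 to 31.6% and the control oligo libraries at 29.5 to 32.2%.

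Against sham, control oligo cortex had 35 Kcn genes higher and 20 lower of 77, and 22 did not pass (limma on log2(TPM + 1), Benjamini-Hochberg adjusted p under 0.05 over 17080 genes). Over all tested genes 52.6% were higher and 12.8% lower, so the share of higher Kcn genes (45.5%) was below the background and the share of lower ones (26.0%) above it. After median-ratio scaling 19 were higher, 30 lower and 28 not past the threshold, against a background of 26.1% higher and 29.2% lower. The median log2 change was 0.41 for the 77 Kcn genes and 0.56 for all genes, and -0.11 and 0.01 after scaling. Against sham, knockdown cortex had 27 higher, 21 lower and 29 not passed, with a background of 52.7% higher and 12.5% lower. Scaled, these became 11, 29 and 37, with a background of 22.7% higher and 27.1% lower. Positive changes numbered 49 of 77 on TPM and 35 after scaling for control oligo, and 51 and 37 for knockdown. Both comparisons use the same sham libraries.

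**Figure D2:**
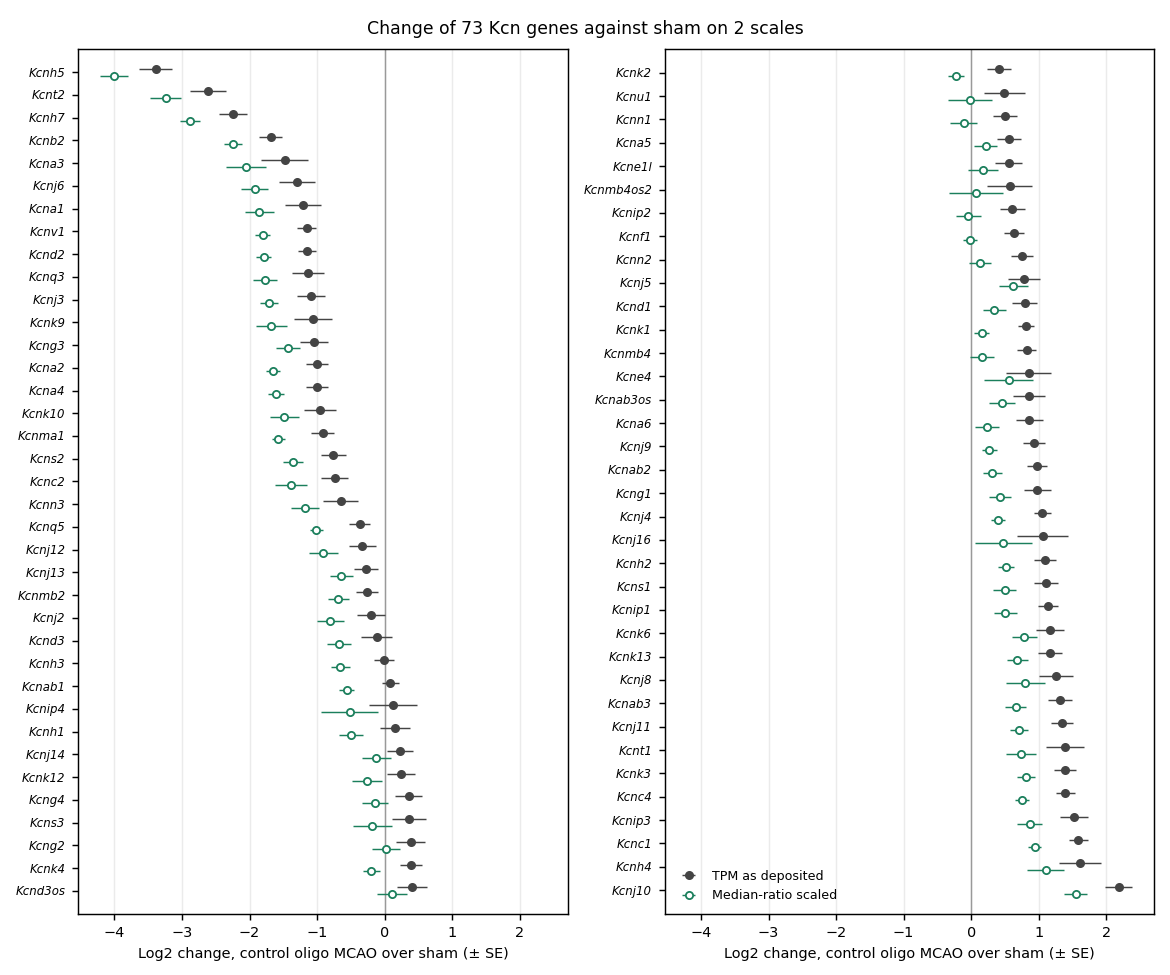
Log2 change (horizontal axis, control oligo MCAO over sham, ± SE) of 73 tested Kcn genes, ordered by size, on TPM as deposited (filled) and after median-ratio scaling (open). The order runs from Kcnh5 at -3.39 to Kcnj10 at 2.19, and scaling moves every point to the left.

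On TPM, FPKM, median-ratio scaled TPM and TPM recomputed over nuclear protein-coding genes alike, 20 coding genes were lower under control oligo than in sham. Among them were Kcna1, Kcna2, Kcna3, Kcna4, Kcnb2, Kcnc2, Kcnd2, Kcng3, Kcnh5, Kcnh7, Kcnq3, Kcns2, Kcnv1, Kcnma1, Kcnt2, Kcnj3, Kcnj6, Kcnk9 and Kcnk10. For knockdown over sham 21 genes were lower on all 4 scales, those 20 and Kcnq5, but the sham libraries are shared and the 2 lists are not independent. Higher on all 4 scales under control oligo were 14 genes, among them Kcnc1, Kcnc4, Kcnh2, Kcnh4, Kcnj5, Kcnj10, Kcnj11, Kcnk3, Kcnk6, Kcnk13, Kcnab3 and Kcnip3. Under knockdown 7 were higher on all 4, among them Kcnc1, Kcnh4, Kcnj8, Kcnj10 and Kcnip3. The share of all genes called on all 4 scales was not computed, so no excess among Kcn genes is read from these counts. On TPM alone, 52.6% of all tested genes were higher and 12.8% lower under control oligo, and 52.7% and 12.5% under knockdown. Scaled TPM alone gave 26.1% and 29.2% under control oligo, and 22.7% and 27.1% under knockdown.

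**Figure D3:**
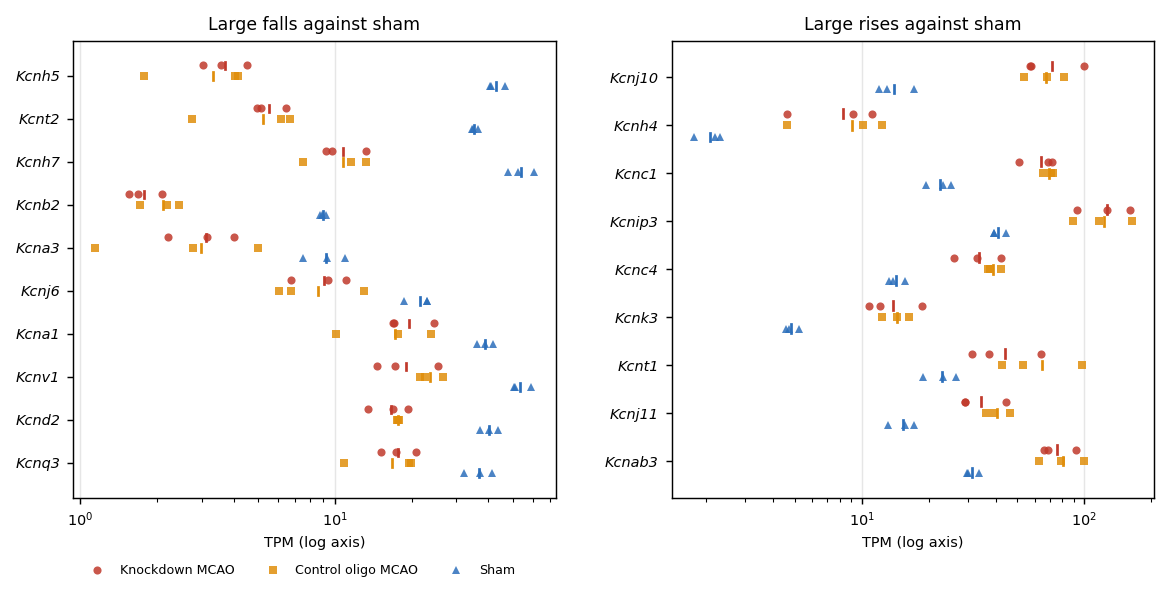
TPM per library (log axis) of 10 Kcn genes with large falls (left) and 9 with large rises (right) under control oligo against sham, with short vertical lines at group means. In every row the knockdown and control oligo points overlap, and the sham points lie clear of the control oligo points.

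Of 34 tested voltage-gated genes, 12 were higher and 14 lower under control oligo than in sham, and 9 higher and 15 lower under knockdown. After scaling the numbers were 7 and 18 under control oligo and 5 and 18 under knockdown. Over all tested genes 52.6% were higher and 12.8% lower under control oligo on TPM, and 26.1% and 29.2% scaled. Under knockdown these shares were 52.7% and 12.5%, and 22.7% and 27.1% scaled. The EAG-related family, Kcnh, held the largest fall. Kcnh5, a channel of the EAG subfamily that is mostly neuronal (ENSMUSG00000034402, chr12:74897220-75177332, GRCm38), had 4.54, 3.04 and 3.56 TPM in the knockdown libraries, 4.06, 4.15 and 1.77 TPM in the control oligo libraries and 46.5, 40.8 and 41.0 TPM in the sham libraries. Both MCAO groups lay far below sham without overlap. The log2 change was -3.39 ± 0.25, adjusted p = 1.64e-05 for control oligo over sham (± SE, as for all that follow) and -3.22 ± 0.16, adjusted p = 6.55e-06 for knockdown over sham. Scaled, these were -4.00 and -3.88. Kcnh7, of the ERG subfamily, had 13.2, 9.23 and 9.76 TPM under knockdown, 11.6, 13.3 and 7.5 TPM under control oligo and 60.6, 52.6 and 48.0 TPM in sham, and its change for knockdown over sham was -2.23 ± 0.17, adjusted p = 4.13e-05. Its relative Kcnh2, the ERG channel known for cardiac repolarization, went the other way, at 17.4, 12.1 and 9.35 TPM under knockdown, 11.4, 14.2 and 10.8 TPM under control oligo and 5.52, 5.15 and 4.71 TPM in sham (1.09 ± 0.17, adjusted p = 6.40e-04 for control oligo over sham, and 0.51 scaled). For knockdown over sham Kcnh2 was higher on TPM (adjusted p = 0.00273) but did not pass after scaling (adjusted p = 0.0605).

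The ELK subfamily split as well. Kcnh4 had 11.1, 4.62 and 9.13 TPM in the knockdown libraries, 12.3, 10.2 and 4.63 TPM in the control oligo libraries and 2.32, 2.20 and 1.76 TPM in the sham libraries, with a log2 change of 1.61 ± 0.31, adjusted p = 0.00191 for control oligo over sham and 1.52 ± 0.29, adjusted p = 0.00243 for knockdown over sham. All 6 MCAO libraries exceeded all 3 sham libraries. Kcnh3, the most abundant Kcnh gene, had 50.2, 38.4 and 41.5 TPM under knockdown, 49.7, 38.7 and 37.7 TPM under control oligo and 43.7, 41.0 and 40.8 TPM in sham, which overlap, and its change did not pass on TPM (-0.0046, adjusted p = 0.981). After scaling it was -0.66 (adjusted p = 0.00595). Kcnh1, the other EAG channel, averaged 30.9 ± 8.73 TPM under knockdown, 32.8 ± 11.5 TPM under control oligo and 28.4 ± 2.13 TPM in sham (SD, n = 3 each). It did not pass against sham on TPM, but after scaling it was called lower in both MCAO groups.

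Start regions are shown for the pair with the largest falls, Kcnh5 and Kcnt2, and for the pair with the largest rises, Kcnj10 and Kcnh4, among genes with a single window, because these genes moved together within each pair. Each sequence is RefSeq's window on GRCm38.p6, 250 bases before to 50 bases after the start in that annotation, read 5′ to 3′ on the gene's strand. For Kcnt2 this start lies upstream of the gene span given for it below, and the window ends before that span begins. Capitals mark GC boxes (GGGCGG or its complement, bound by Sp-type factors).
Kcnh5, chr12:75177283-75177582, minus strand: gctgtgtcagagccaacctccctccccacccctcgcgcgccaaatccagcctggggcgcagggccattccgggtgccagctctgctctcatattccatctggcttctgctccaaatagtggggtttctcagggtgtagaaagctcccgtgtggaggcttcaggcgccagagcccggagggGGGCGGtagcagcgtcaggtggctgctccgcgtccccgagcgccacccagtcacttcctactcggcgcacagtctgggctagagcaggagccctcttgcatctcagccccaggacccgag
Kcnt2, chr1:140245468-140245767, plus strand: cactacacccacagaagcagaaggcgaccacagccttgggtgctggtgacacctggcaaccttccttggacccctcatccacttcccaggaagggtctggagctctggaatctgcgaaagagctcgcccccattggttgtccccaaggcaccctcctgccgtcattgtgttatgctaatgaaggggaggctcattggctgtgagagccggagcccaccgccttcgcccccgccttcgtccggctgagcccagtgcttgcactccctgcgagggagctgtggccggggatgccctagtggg
Kcnj10, chr1:172340960-172341259, plus strand: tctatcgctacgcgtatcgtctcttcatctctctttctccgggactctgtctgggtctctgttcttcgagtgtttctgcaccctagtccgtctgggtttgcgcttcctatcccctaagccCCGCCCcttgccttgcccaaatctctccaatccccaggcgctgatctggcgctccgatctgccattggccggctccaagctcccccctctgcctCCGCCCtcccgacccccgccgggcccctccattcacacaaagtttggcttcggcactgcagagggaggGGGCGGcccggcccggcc
Kcnh4, chr11:100759729-100760028, minus strand: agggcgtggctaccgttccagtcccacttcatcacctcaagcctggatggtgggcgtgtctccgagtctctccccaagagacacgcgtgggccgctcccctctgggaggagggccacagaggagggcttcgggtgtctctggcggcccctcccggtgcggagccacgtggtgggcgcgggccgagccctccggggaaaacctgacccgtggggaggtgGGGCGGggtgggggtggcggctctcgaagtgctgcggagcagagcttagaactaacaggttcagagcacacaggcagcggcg
The Kcnh5 window held 17 CpG dinucleotides and 1 GC box, and the Kcnt2 window 12 and 0. The Kcnj10 window held 21 and 3, and the Kcnh4 window 23 and 1. All 4 are rich in G and C (62.7 to 68.7%), those of the falling genes included. RefSeq gave 97 windows for 72 Kcn genes. A GC box on either strand stood in 47.4% of them, against 35.7% of all 32851 windows, and TATAAA on either strand in 5.15% against 13.6%. The full cyclic AMP response element TGACGTCA, a site of activity-dependent CREB binding, was in 0% against 1.79%, which says only that these letters are not in these windows.

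The Shaker family, Kcna, was lower against sham in 4 of its 6 tested members in each MCAO group, on TPM and after scaling. The share of lower genes among all tested genes was 12.8% under control oligo on TPM and 29.2% scaled. Under knockdown this share was 12.5% on TPM and 27.1% scaled. With 6 genes, no trait of the family is read from this count. Kcna1, an axonal channel that limits repetitive firing, had 24.6, 17.0 and 16.9 TPM in the knockdown libraries, 17.6, 23.8 and 10.1 TPM in the control oligo libraries and 41.6, 38.9 and 36.2 TPM in the sham libraries. The groups with MCAO lay below sham without overlap, and the change was -1.21 ± 0.27, adjusted p = 0.00411 for control oligo over sham. Kcna2, its usual partner in axons, had 36.0, 2.30 and 25.2 TPM under knockdown, 35.6, 35.8 and 26.2 TPM under control oligo and 70.5, 70.0 and 56.6 TPM in sham. Under control oligo it fell (-1.0 ± 0.17, adjusted p = 9.94e-04). The knockdown group was also lower than sham (-2.17 ± 0.79, adjusted p = 0.041), but with knockdown replicate 3 far below the other 2 the call was lost when any 1 sham library was left out (-2.12, -2.12 and -2.27, adjusted p = 0.0952 to 0.0988), and without knockdown replicate 3 the change was -1.09 (adjusted p = 0.00418). Kcna3 (-1.48 ± 0.35, adjusted p = 0.00544 for control oligo over sham) and Kcna4 (-1.0 ± 0.16, adjusted p = 8.70e-04) fell too. Kcna6 and the low Kcna5 went against these 4 on TPM. Kcna6 had 22.7, 20.1 and 13.1 TPM under knockdown, 15.4, 24.5 and 22.0 TPM under control oligo and 12.2, 10.1 and 10.02 TPM in sham (0.86 ± 0.20, adjusted p = 0.00492), and did not pass after scaling (0.24, adjusted p = 0.287), and neither did Kcna5 (adjusted p = 0.314), whose call on TPM was lost without sham replicate 1 or 3 (adjusted p = 0.0858 and 0.0707).

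The Shaw family, Kcnc, supplies the fast repolarization of fast-spiking neurons, and it moved in both directions. Kcnc1 had 71.4, 69.2 and 51.0 TPM in the knockdown libraries, 71.2, 72.4 and 65.4 TPM in the control oligo libraries and 25.1, 23.2 and 19.4 TPM in the sham libraries, all MCAO libraries above all sham libraries (1.59 ± 0.14, adjusted p = 4.24e-05 for control oligo over sham), and Kcnc4 rose by 1.39 ± 0.14, adjusted p = 7.77e-05. Kcnc2 fell: it had 24.0, 15.1 and 14.8 TPM under knockdown, 24.7, 18.6 and 32.6 TPM under control oligo and 42.1, 44.8 and 39.0 TPM in sham. Its change was -0.74 ± 0.20, adjusted p = 0.0107 for control oligo over sham and -1.21 ± 0.20, adjusted p = 0.00114 for knockdown over sham.

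Of the channels of A-type and delayed rectifier currents, Kcnd2 and Kcnb2 were lower than in sham. Kcnd2, the main dendritic A-type channel, had 19.4, 16.9 and 13.5 TPM in the knockdown libraries, 17.9, 17.7 and 17.5 TPM in the control oligo libraries and 43.8, 40.3 and 37.2 TPM in the sham libraries, and fell (-1.14 ± 0.13, adjusted p = 1.51e-04 for control oligo over sham). Kcnb2 fell to 2.08, 1.69 and 1.56 TPM under knockdown and 2.44, 2.19 and 1.71 TPM under control oligo, against 8.92, 9.19 and 8.76 TPM in sham (-1.68 ± 0.17, adjusted p = 7.68e-05 for control oligo over sham). Kcnd3 is described below with the transcripts.

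Channels of the Kcnq family carry the M-current, which brakes firing. Kcnq3 had 20.9, 15.1 and 17.3 TPM in the knockdown libraries, 19.5, 20.0 and 10.8 TPM in the control oligo libraries and 41.4, 37.2 and 32.1 TPM in the sham libraries, with MCAO libraries below sham throughout (-1.13 ± 0.23, adjusted p = 0.00298 for control oligo over sham and -1.02 ± 0.16, adjusted p = 0.0011 for knockdown over sham). Kcnq5, another of its subunits, averaged 17.2 ± 2.25 TPM under knockdown, 21.4 ± 2.96 TPM under control oligo and 27.7 ± 1.54 TPM in sham (SD, n = 3 each). It was lower for knockdown over sham (-0.67 ± 0.14, adjusted p = 0.00413), while control oligo over sham did not pass on TPM (-0.37 ± 0.15, adjusted p = 0.0585) and did after scaling (-1.01, adjusted p = 1.54e-04).

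Silent subunits form no channel alone and alter those of other families. Kcnv1 had 25.4, 17.2 and 14.6 TPM in the knockdown libraries, 21.6, 26.5 and 22.6 TPM in the control oligo libraries and 59.2, 50.4 and 51.2 TPM in the sham libraries and fell (-1.15 ± 0.14, adjusted p = 2.11e-04 for control oligo over sham and -1.47 ± 0.20, adjusted p = 5.15e-04 for knockdown over sham), with no overlap with sham. Kcns2 (-0.76 ± 0.18, adjusted p = 0.00598 for control oligo over sham) and Kcng3 (-1.05 ± 0.20, adjusted p = 0.0021) fell as well. Kcns1 rose on TPM (1.10 ± 0.18, adjusted p = 7.86e-04 for control oligo over sham), less so after scaling (0.49). Kcnf1, the most abundant of them, had 70.8, 60.1 and 42.3 TPM under knockdown, 67.7, 70.1 and 52.3 TPM under control oligo and 42.2, 39.3 and 38.6 TPM in sham. Its change for control oligo over sham was 0.64 ± 0.15, adjusted p = 0.00522 on TPM and had the opposite sign after scaling (-0.02), so no direction is given. Kcng1 rose under control oligo (0.98 ± 0.20, adjusted p = 0.00257) and did not pass after scaling (adjusted p = 0.0559).

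Of the 7 tested calcium- or sodium-activated genes, Kcnma1 and Kcnt2 were lower against sham in both MCAO groups on all 4 scales. Kcnt2, a sodium-activated channel (ENSMUSG00000052726, chr1:140246158-140612067), had 6.43, 5.14 and 4.96 TPM in the knockdown libraries, 6.67, 6.16 and 2.75 TPM in the control oligo libraries and 34.8, 34.5 and 36.6 TPM in the sham libraries. The change was -2.62 ± 0.26, adjusted p = 7.84e-05 for control oligo over sham and -2.48 ± 0.14, adjusted p = 1.18e-05 for knockdown over sham, with a wide gap between all MCAO and all sham libraries. Kcnt1, the other sodium-activated channel, had 31.5, 37.4 and 64.0 TPM under knockdown, 53.4, 98.3 and 43.0 TPM under control oligo and 26.5, 23.3 and 18.8 TPM in sham. Its rise under control oligo was 1.39 ± 0.29, adjusted p = 0.00285 (0.74 scaled), and its rise under knockdown was 0.87 ± 0.26, adjusted p = 0.0196 on TPM but 0.17 scaled, where it did not pass (adjusted p = 0.626). The knockdown call was also lost without sham replicate 2 or 3 (adjusted p = 0.0515 and 0.0808). Kcnma1, the large-conductance BK channel, had 27.6, 23.6 and 27.1 TPM under knockdown, 33.0, 37.1 and 26.9 TPM under control oligo and 63.4, 68.8 and 53.1 TPM in sham (-0.92 ± 0.17, adjusted p = 0.00145 for control oligo over sham and -1.21 ± 0.14, adjusted p = 2.70e-04 for knockdown over sham). Among small-conductance channels Kcnn2 rose on TPM (0.75 ± 0.16, adjusted p = 0.00309 for control oligo over sham, and 0.12 scaled, adjusted p = 0.54). Kcnu1, known as a sperm channel, was placed in this class by its family letters and not by what opens it. It averaged 3.84 ± 1.00 TPM under knockdown, 4.04 ± 1.11 TPM under control oligo and 2.72 ± 1.3 TPM in sham (SD, n = 3 each) and did not pass.

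Inward rectifiers were higher against sham in 7 of 13 tested members under control oligo and in 5 under knockdown. In each MCAO group 2 were lower. Among all tested genes 52.6% were higher and 12.8% lower under control oligo, and 52.7% and 12.5% under knockdown. The counts for control oligo are thus near the background. With 13 genes, no trait of the class is read from these counts. After scaling, control oligo had 5 higher and 5 lower, and knockdown 2 higher and 4 lower. The background was then 26.1% higher and 29.2% lower under control oligo, and 22.7% and 27.1% under knockdown. Kcnj10, the astrocyte channel that buffers extracellular potassium (ENSMUSG00000044708, chr1:172341210-172374085), had 57.5, 57.0 and 100.1 TPM in the knockdown libraries, 53.6, 81.2 and 68.4 TPM in the control oligo libraries and 17.2, 13 and 12.0 TPM in the sham libraries. All MCAO libraries exceeded all sham libraries, with a change of 2.19 ± 0.20, adjusted p = 4.50e-05 for control oligo over sham and 2.23 ± 0.24, adjusted p = 1.88e-04 for knockdown over sham (1.55 and 1.54 scaled). Its partner Kcnj16 had 6.75, 9.56 and 17.2 TPM under knockdown, 10.03, 13.7 and 14.0 TPM under control oligo and 8.47, 2.33 and 7.51 TPM in sham, with sham replicate 2 the lowest of all. It passed for control oligo over sham on TPM (1.06 ± 0.37, adjusted p = 0.0331) but not after scaling (adjusted p = 0.366) or without sham replicate 2 (0.58, adjusted p = 0.0563) or control oligo replicate 2 or 3 (adjusted p = 0.0824 and 0.0733), nor for knockdown over sham (adjusted p = 0.139). The astrocyte marker list summed to 698 to 833 TPM under knockdown, 754 to 860 TPM under control oligo and 682 to 772 TPM in sham, with 3 of 6 markers higher and 1 lower on TPM in each MCAO group. After scaling 1 was higher and 1 lower under knockdown, and 1 higher and 2 lower under control oligo. The part of cell number in these values was not tested, and in tissue RNA more cells and more RNA per cell cannot be told apart.

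The KATP channel subunits, which open when ATP runs low, were both higher. Kcnj11, the neuronal subunit, had 44.5, 29.2 and 29.1 TPM in the knockdown libraries, 39.4, 46.4 and 36.2 TPM in the control oligo libraries and 13.2, 17.3 and 15.7 TPM in the sham libraries (1.35 ± 0.16, adjusted p = 1.78e-04 for control oligo over sham). For knockdown over sham it passed on TPM (1.09 ± 0.20, adjusted p = 0.00199) but not after scaling (adjusted p = 0.11). Kcnj8, the vascular subunit, had 6.28, 5.63 and 5.73 TPM under knockdown, 5.40, 3.19 and 7.22 TPM under control oligo and 1.54, 1.51 and 1.53 TPM in sham (1.26 ± 0.25, adjusted p = 0.00231 for control oligo over sham and 1.44 ± 0.16, adjusted p = 1.79e-04 for knockdown over sham). Pericyte and smooth muscle markers summed to 130 to 185 TPM under knockdown, 118 to 140 TPM under control oligo and 87.7 to 100.5 TPM in sham, with 3 of 5 higher and 0 lower under knockdown and 2 higher and 0 lower under control oligo on TPM. After scaling 0 were higher and 1 lower under knockdown, and 0 higher and 2 lower under control oligo. Their part in the Kcnj8 values was not tested. Abcc8 and Abcc9, the sulfonylurea receptors that pair with these pores, did not pass in either comparison with sham on TPM. After scaling Abcc9 was lower for control oligo over sham (-0.56, adjusted p = 0.0222). Abcc8 had 10.2, 7.80 and 13.6 TPM under knockdown, 13.8, 15.3 and 11.7 TPM under control oligo and 8.77, 9.12 and 11.5 TPM in sham.

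The G-protein-gated rectifiers, which carry the inhibitory action of metabotropic receptors, divided. Kcnj6 had 9.40, 11.0 and 6.74 TPM in the knockdown libraries, 6.73, 13 and 6.02 TPM in the control oligo libraries and 22.9, 23.0 and 18.6 TPM in the sham libraries and fell (-1.3 ± 0.26, adjusted p = 0.00254 for control oligo over sham), as did Kcnj3 (-1.09 ± 0.20, adjusted p = 0.0017). Kcnj9, the third neuronal subunit, had 126, 94.0 and 69.3 TPM under knockdown, 104, 118 and 80.1 TPM under control oligo and 53.8, 50.5 and 51.4 TPM in sham. It was higher on TPM (0.93 ± 0.16, adjusted p = 0.0011 for control oligo over sham) and did not pass after scaling (0.27, adjusted p = 0.0742). Kcnj5 stayed under 2 TPM in every library and was higher under control oligo (0.79 ± 0.24, adjusted p = 0.017). That call was lost without sham replicate 3 or without control oligo replicate 1 or 2 (adjusted p = 0.0504 to 0.0529). Kcnj4, the most abundant inward rectifier, had 129.8, 127 and 77.7 TPM under knockdown, 114, 129.8 and 118 TPM under control oligo and 55, 63.2 and 54.4 TPM in sham, and its change for control oligo over sham was 1.05 ± 0.13, adjusted p = 1.70e-04 (0.40 scaled).

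Of 9 tested two-pore genes, 4 were higher and 2 lower against sham under both oligos on TPM. After scaling 2 were higher and 2 lower under knockdown, and 3 higher and 2 lower under control oligo. Over all tested genes 52.6% were higher and 12.8% lower under control oligo on TPM, and 26.1% and 29.2% scaled. Under knockdown these shares were 52.7% and 12.5%, and 22.7% and 27.1% scaled. With 9 genes, no trait of the class is read from these counts. Kcnk1, the most abundant, had 119.5, 107 and 69.0 TPM in the knockdown libraries, 92.2, 99.6 and 95 TPM in the control oligo libraries and 56.2, 51.5 and 54.3 TPM in the sham libraries. Its change on TPM (0.81 ± 0.12, adjusted p = 4.21e-04 for control oligo over sham) did not pass after scaling (0.16, adjusted p = 0.265). The acid-sensitive pair Kcnk3 and Kcnk9 moved in opposite directions. Kcnk3 had 18.6, 10.7 and 12.1 TPM under knockdown, 14.5, 16.3 and 12.4 TPM under control oligo and 4.72, 4.58 and 5.22 TPM in sham (1.39 ± 0.17, adjusted p = 1.77e-04 for control oligo over sham), and Kcnk9 had 7.60, 5.67 and 8.49 TPM under knockdown, 5.49, 11.2 and 4.46 TPM under control oligo and 15.3, 14.8 and 14.2 TPM in sham (-1.06 ± 0.28, adjusted p = 0.00975). Kcnk10 fell (-0.95 ± 0.24, adjusted p = 0.007 for control oligo over sham), and its stretch-sensitive relatives Kcnk2 and Kcnk4 did not pass (adjusted p = 0.0723 and 0.0625 for control oligo over sham). Kcnk13, a microglial channel, had 4.54, 2.95 and 6.79 TPM under knockdown, 5.23, 6.21 and 4.36 TPM under control oligo and 1.66, 1.69 and 1.97 TPM in sham (1.17 ± 0.18, adjusted p = 6.23e-04 for control oligo over sham). Microglial markers summed to 206 to 387 TPM under knockdown, 199 to 220 TPM under control oligo and 112 to 132 TPM in sham, with 4 of 5 markers higher and 1 lower on TPM in each MCAO group. After scaling 1 was higher and 1 lower under knockdown, and 2 higher and 1 lower under control oligo. Kcnk6, a channel of low level with 2.99, 3.02 and 6.10 TPM under knockdown, 3.26, 3.75 and 2.70 TPM under control oligo and 0.855, 1.29 and 0.556 TPM in sham, was higher as well (1.37 ± 0.28, adjusted p = 0.00339 for knockdown over sham). Knockdown replicate 4 was the highest library for the sum of these markers, for Kcnk13 and for Kcnk6, although P2ry12 was lowest among the knockdown libraries there and Cx3cr1 was higher in knockdown replicate 2. The part of these cells in the Kcnk13 and Kcnk6 values was not tested.

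Auxiliary subunits had no tested member lower against sham on TPM: 8 of 11 were higher under control oligo and 7 under knockdown. Over all tested genes 52.6% were higher and 12.8% lower under control oligo, and 52.7% and 12.5% under knockdown. After scaling 3 were higher and 2 lower under control oligo, and 2 higher and 2 lower under knockdown. The background was then 26.1% higher and 29.2% lower under control oligo, and 22.7% and 27.1% under knockdown. With 11 genes, no trait of the class is read from these counts. Kcnab2, the Shaker beta subunit and the most abundant Kcn gene, had 356, 337 and 271 TPM in the knockdown libraries, 299, 325 and 258 TPM in the control oligo libraries and 126, 171 and 152 TPM in the sham libraries, with all MCAO libraries above sham (0.97 ± 0.15, adjusted p = 6.18e-04 for control oligo over sham, and 0.31 scaled, adjusted p = 0.0977). Kcnab3 passed on both scales in both comparisons (1.31 ± 0.18, adjusted p = 3.32e-04 for control oligo over sham). Kcnab1 had 36.0, 40.8 and 24.2 TPM under knockdown, 33.5, 34.4 and 34.5 TPM under control oligo and 31.9, 34.2 and 30.2 TPM in sham and did not pass on TPM, and after scaling was lower (-0.56, adjusted p = 0.00393). Kcnip3, a calcium-binding partner of A-type channels that also acts as a transcriptional repressor, had 161, 127 and 93.4 TPM under knockdown, 89.0, 165 and 117 TPM under control oligo and 39.3, 44.5 and 39.2 TPM in sham (1.52 ± 0.21, adjusted p = 3.70e-04 for control oligo over sham and 1.58 ± 0.20, adjusted p = 3.63e-04 for knockdown over sham). Kcnmb4, the neuronal BK beta subunit, was higher on TPM under control oligo (0.82 ± 0.15, adjusted p = 0.0014, and 0.16 scaled, adjusted p = 0.459) while Kcnma1, the pore it binds, was lower. Kcne1l stayed under 3 TPM in every library.

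Of the 5 noncoding transcripts 3 were tested, and Kcnab3os alone passed, for control oligo over sham on TPM (0.85 ± 0.24, adjusted p = 0.0125), but not after scaling (adjusted p = 0.0833) or without sham replicate 3 (adjusted p = 0.0508). These transcripts lie near or across a channel gene, and the deposited values were made without a strand option, so Kcnab3 and Kcnab3os, and likewise the other pairs, are uncertain where they overlap. The 22 untested genes reached at most 1.98 TPM, and Kcnk16 and Kcnv2 were listed at 0 in all 9 libraries. That highest value was Kcnq1 in knockdown replicate 4, against 0.380 and 0.608 TPM in the other knockdown libraries. Kcnn4, a channel of blood and immune cells, had 0.0308, 0.209 and 1.5 TPM in the knockdown libraries, 0.335, 0.118 and 0.372 TPM in the control oligo libraries and 0.0533, 0 and 0.0223 TPM in the sham libraries. Neutrophil markers in the knockdown libraries summed to 73.0, 91.6 and 1388 TPM in the same order, so the same library was high for both. The neutrophil sums were 322, 30.6 and 336 TPM under control oligo and 4.24, 7.59 and 2.59 TPM in sham, and of 4 tested neutrophil markers 3 were higher under knockdown than in sham and 4 under control oligo on TPM, and 3 in each after scaling. The part of these cells in any Kcn value was not tested.

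Between the groups that differ in the oligo, no Kcn gene passed. Of 77 genes 0 were higher and 0 lower in knockdown than in control oligo cortex (limma, smallest adjusted p = 1.0), against a background of 0.00585% of genes higher and 0.00585% lower, which is 1 gene each. At an unadjusted p under 0.05 there were 0 Kcn genes, against 1.88% of all genes. In 0 Kcn genes did the groups not overlap, against 5.4% of all genes. The median log2 change was -0.03 for the Kcn genes and 0.06 for all genes. The 95% interval of the difference lay within 1 log2 unit on either side for 65 of the 77, with a median half-width of 0.616. A larger difference lies outside the interval for these 65, and smaller ones can be missed with 3 libraries a group.

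**Figure D4:**
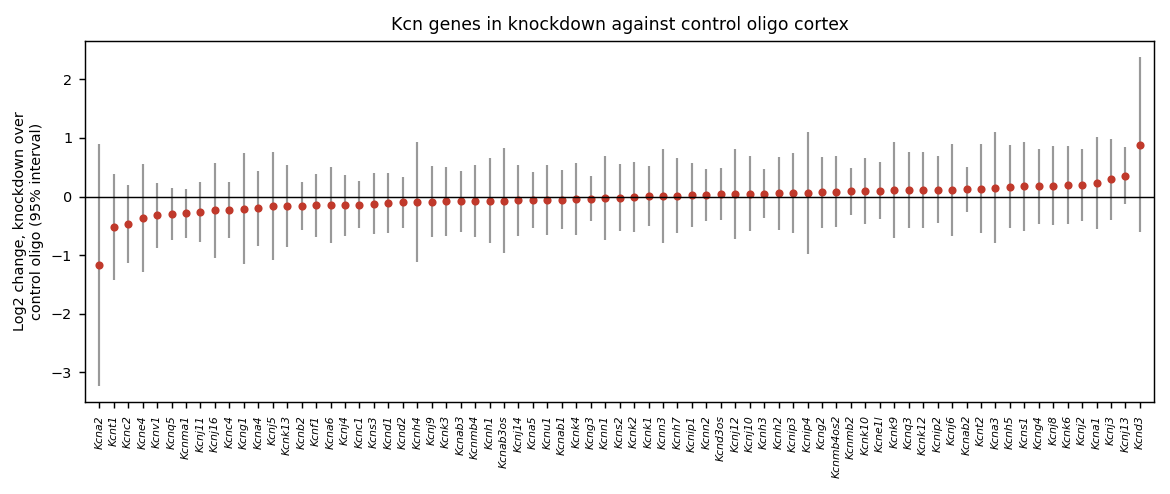
Log2 change of 73 Kcn genes (vertical axis, knockdown over control oligo, log2(TPM + 1)) with its 95% interval, ordered by size along the horizontal axis. All 73 intervals include 0, and the points run from Kcna2 at -1.17 to Kcnd3 at 0.89.

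None of the genes nearest the threshold passed. Those with the smallest p among positive changes were Kcnj13, Kcnd3, Kcnj3, Kcnj2 and Kcnab2. Kcnj13, a channel of epithelia such as the choroid plexus, had 0.857, 1.88 and 1.67 TPM under knockdown and 1.14, 0.703 and 0.894 TPM under control oligo (log2 change 0.35, 95% interval -0.14 to 0.84). Its 2 higher knockdown libraries, replicates 3 and 4, were also those with the higher sums of choroid plexus markers, which were 4.84, 61.5 and 16.5 TPM in the knockdown libraries and 4.24 to 6.11 TPM under control oligo. In replicate 3 the sum was mostly Ttr (56.7 TPM) and in replicate 4 mostly Aqp1 (14.7 TPM), a water channel also of other cells, while Ttr, Folr1 and Kl were lower in replicate 4 than in replicate 2. In sham, Kcnj13 ran from 0.980 to 1.53 TPM, while the choroid plexus sums there were only 1.06 to 1.42 TPM. The part of choroid plexus in the Kcnj13 values was not tested. Among negative changes they were Kcnc2, Kcnma1, Kcnq5, Kcnv1 and Kcnt1. Kcnc2 was at -0.47 (interval -1.14 to 0.20), Kcnma1 at -0.29 (-0.70 to 0.12) and Kcnq5 at -0.30 (-0.74 to 0.15). After scaling, Kcnma1 and Kcnq5 had knockdown libraries all below control oligo libraries. The share of all genes without overlap is given on TPM only, where it was 5.4%. Scaled, 2 of 77 Kcn genes had an unadjusted p under 0.05 in limma, against 405 of all 17080 genes, which is a similar share. No Kcn gene passed after adjustment, where 0.0117% of all genes were called higher and 0.00585% lower.

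Spread between libraries bears on these values. The median SD of log2(TPM + 1) over the tested Kcn genes was 0.369 under knockdown, 0.248 under control oligo and 0.147 in sham, and over all tested genes 0.258, 0.257 and 0.143 in the same order. Neuronal markers summed to 4305, 3904 and 2788 TPM in knockdown replicates 2, 3 and 4, 3425 to 3748 TPM under control oligo and 2442 to 2909 TPM in sham. Of these 5 markers 1 was higher and 0 lower under knockdown than in sham on TPM, and 2 higher and 1 lower under control oligo. After scaling 1 was higher and 3 lower in each comparison. Knockdown replicate 4 was thus the lowest of the knockdown libraries both in the sum of neuronal markers and in the Kcn total. That sum was mostly Snap25. Map2 was lowest in knockdown replicate 2 instead (155.9, 316.7 and 315.1 TPM in replicates 2, 3 and 4), and the other neuronal markers were lowest in replicate 4. Whether the marker levels set the spread was not tested. Without knockdown replicate 4, 18 Kcn genes were higher than sham after scaling in place of 11, and without sham replicate 1 or sham replicate 2 it was 7.

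In 2 genes 1 library decided the largest differences between knockdown and control oligo, and they were looked at after their values had been seen. Kcna2 was at 36.0, 2.30 and 25.2 TPM under knockdown and 35.6, 35.8 and 26.2 TPM under control oligo (log2 change -1.17, interval -3.23 to 0.89). Its last exon of 11061 bases had a coverage of 19.4, 1.09 and 15 per gigabase assigned in the knockdown libraries, 20.8, 19.3 and 16.5 in the control oligo libraries and 51.5, 53.0 and 47.8 in the sham libraries. Knockdown replicate 3 was thus low in the mean of that exon, while in the 328-base exon before it the same library had 1.26, within the range of the other MCAO libraries (1.14 to 3.07). Kcnd3, an A-type channel, had 25.3, 5.35 and 4.15 TPM under knockdown and 4.6, 5.38 and 2.80 TPM under control oligo. Its last exon of 4995 bases had a coverage of 16.7, 0.386 and 0.258 under knockdown and 0.254, 0.560 and 0.208 under control oligo. An upstream exon of 248 bases had 6.96, 9.90 and 6.05 under knockdown and 7.13, 7.61 and 7.5 under control oligo, so the high Kcnd3 value of knockdown replicate 2 lay in the last exon and not in the rest of the gene.

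Transcript assignment varied in other members too. Of 33 genes with at least 10 TPM on average and more than 1 annotated transcript, 17 had the same leading transcript in all 9 libraries and 16 did not, and in all 16 it differed within a group. Kcna6 stood on a 5827-base transcript for 82.8% of its TPM in knockdown replicate 2, but on a 5836-base one for 57.4 and 72.4% in knockdown replicates 3 and 4. Since the choice differs among replicates of 1 group, no change of isoform between groups is read from these files.

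Coverage along the transcript lay further toward the 3′ end in the MCAO libraries than in sham. Over 25 Kcn genes whose leading transcript has at least 5 exons and whose mean is at least 5 TPM, the median share of assigned bases on the 5′ side of the transcript's midpoint was 36.4, 37.6 and 37.3% in the knockdown libraries, 36.3, 39.0 and 34.2% in the control oligo libraries and 50.9, 51.4 and 49.7% in the sham libraries. Over 7674 protein-coding genes of the same kind it was 41.3 to 42.7% under knockdown, 39.4 to 42.4% under control oligo and 49.1 to 49.7% in sham. This measure was chosen after the exon values had been seen. In Kcna2 the 328-base exon ahead of the last one had a coverage of 3.07, 1.26 and 1.82 under knockdown, 1.14, 1.55 and 1.16 under control oligo and 51.5, 46.3 and 42.3 in sham, a wider gap than in the last exon.

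On the 3′ side of the midpoint alone, coverage could be taken for the same 25 genes, which include 5 of the 10 with the largest falls. Kcnh5 had a coverage there of 3.53, 2.21 and 2.49 per gigabase under knockdown, 3.05, 2.94 and 1.47 under control oligo and 36.9, 32.6 and 36.0 in sham. The log2 ratio of the group means for control oligo over sham was -3.82 for Kcnh5, -2.62 for Kcnh7, -1.94 for Kcnt2, -1.46 for Kcnq3, -1.35 for Kcnd2 and -0.93 for Kcnma1, beside a median of 0.37 over the 7674 genes and 0.02 over the 25. For rises it was 2.43 for Kcnh4, 0.61 for Kcnab3 and 0.56 for Kcnh2. The part of coverage, RNA quality or library protocol in any value against sham was not tested.

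The lower and the higher genes also differed in sequence composition. The 20 that were lower under control oligo than in sham on both TPM and scaled TPM had a median transcript GC content of 45.5% (39.3 to 60.3%), and the 19 that were higher on both had 56.0% (49.6 to 61.3%), with 50.4% for all tested nuclear protein-coding genes. Across 74 coding Kcn genes the Spearman correlation of GC content with the log2 change was 0.557, and across 13824 genes it was 0.450. Gene span ran the other way, with a median of 155.5 kb for the lower and 29.6 kb for the higher genes and a correlation of -0.302, against -0.384 over all genes. For knockdown over control oligo the correlations across the Kcn genes were 0.075 with GC content and -0.009 with span, against -0.125 and -0.012 over all genes. With transcript length, averaged over a gene's transcripts by TPM, the correlation was -0.243, against -0.015 over all genes. For control oligo over sham the correlation with this length was -0.258, against -0.411 over all genes. Genes of 1 library set share its preparation and depth and are not independent, so these are descriptions, and the relation to GC content is not particular to potassium channels.

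**Figure D5:**
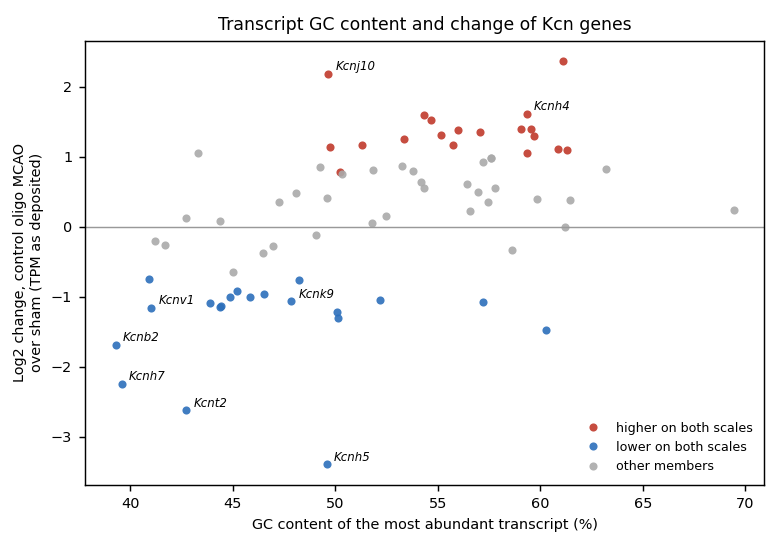
Log2 change of 74 coding Kcn genes (vertical axis, control oligo MCAO over sham, TPM as deposited) against the GC content of the most abundant transcript (percent, horizontal axis). Genes lower on both scales lie mostly to the left, with a median GC content of 45.5%, and genes higher on both scales to the right, with a median of 56.0%, while Kcnj10 and Kcnh5 have nearly the same GC content and lie far apart.

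Channel partners and potassium transporters that are not Kcn genes also moved in both directions against sham. Of 38 tested genes in this list, 20 were higher and 4 lower under control oligo than in sham, and 9 and 15 after scaling. On TPM these shares are at the background of 52.6% higher and near that of 12.8% lower. After scaling the background was 26.1% higher and 29.2% lower. Under knockdown against sham 19 were higher and 8 lower, where 52.7% of all genes were higher and 12.5% lower. Scaled, these became 8 and 11, with a background of 22.7% higher and 27.1% lower. Atp1b2, the glial beta subunit of the sodium-potassium pump, had 324, 299 and 425 TPM in the knockdown libraries, 330.1, 330.5 and 293 TPM in the control oligo libraries and 27.4, 24.3 and 19.8 TPM in the sham libraries, with all MCAO libraries far above sham (3.69 ± 0.15, adjusted p = 5.13e-07 for control oligo over sham, and 3.04 scaled). Dlg4, a scaffold that clusters Shaker channels, rose (1.5 ± 0.13, adjusted p = 3.16e-05), and so did Hcn2 (1.34 ± 0.13, adjusted p = 6.68e-05), a pacemaker channel permeable to potassium and sodium. Adam22, a partner of Shaker channels in axons, had 34.9, 25.4 and 27.2 TPM under knockdown, 34.2, 40.0 and 25.5 TPM under control oligo and 84.7, 82.8 and 70.7 TPM in sham and was lower under knockdown than in sham (-1.42 ± 0.16, adjusted p = 1.93e-04), as was Ank3, which anchors Kcnq channels at the axon initial segment (-1.14 ± 0.14, adjusted p = 3.56e-04). Between knockdown and control oligo 0 of the 38 passed. Those with the smallest p were Vapa, which tethers the endoplasmic reticulum to other membranes (0.29), Abcc8 (-0.36), Lrrc26, a BK subunit (0.19), and Abcc9 (0.30), each with an adjusted p of 1.0 in limma.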

How the data were processed

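Cortex RNA-seq of 9 libraries was read from deposited StringTie output, which gives coverage per base, FPKM and TPM for each transcript (the deposited attribute fields). HISAT2 2.0 and StringTie 1.3 on GRCm38/mm10 are named in the submitters' processing notes, and per the file headers the version was 1.3.4d, run on a merged annotation with no strand option. Per the labels' protocols, knockdown and control oligo libraries were stranded poly(A) libraries, while for the sham samples the library details are not given in these sources. Nothing says whether each library is 1 mouse, so p-values measure the spread between these samples.

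TPM was summed per gene. Genes with TPM of at least 1 in at least 3 of 9 libraries (17080) were fitted as log2(TPM + 1) with limma 3.58.1 (R 4.3.3, trend), on the 6 libraries of each comparison, two-sided, with Benjamini-Hochberg adjustment over all of them. Fold changes on this scale understate changes of low genes. Tests were checked on simulated data. Alternatives were FPKM, a pseudocount of 0.1, no filter, median-ratio scaling, TPM over nuclear protein-coding genes, all 9 libraries in 1 fit, leaving out each library, and a replicate block. Scaling together with leaving out a library was added after seeing the data.

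Named genes were, per comparison, the 10 largest changes in each direction among genes past the threshold with groups that do not overlap, the 5 smallest p in a direction where fewer than 5 passed, the most abundant gene of each family, and any gene with a mean of at least 50 TPM. Some items that this rule takes are not reported here. Other Kcn genes named beside these were chosen after their values were seen. Up to 4 partner genes with the smallest p were named per comparison, with Abcc8 and Abcc9 added beside the KATP subunits. The members and lists were chosen with earlier results of these data known. All 99 genes matched GENCODE M21 by identifier, from which GC content was taken, and promoter windows came from RefSeq (GRCm38.p6).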

Additional observations from a re-analysis of the deposited data

How the results depend on the processing

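The number of Kcn genes higher than sham depended on the unit. For control oligo over sham it was 35 on TPM, 22 on FPKM, 19 after median-ratio scaling and 14 over nuclear protein-coding genes, and for knockdown over sham 27, 14, 11 and 7. The share of all tested genes called higher also fell with scaling, from 52.6 to 26.1% for control oligo and from 52.7 to 22.7% for knockdown. No share over all genes is given for the other settings, so their counts are not set against a background. The cause of the differences between units was not tested. The number lower was between 19 and 30 for control oligo and between 20 and 29 for knockdown under all settings without a library left out. Leaving out 1 library gave 30 to 34 higher and 19 to 22 lower for control oligo, and 22 to 35 higher and 19 to 22 lower for knockdown. After scaling, leaving out 1 library gave 14 to 19 higher and 28 to 30 lower for control oligo, and 7 to 18 higher (7 without sham replicate 1 or 2, 18 without knockdown replicate 4) and 22 to 29 lower for knockdown. For knockdown over control oligo the counts were 0 and 0 under every setting run. Of 55 calls for control oligo over sham, 46 held without any 1 library, and of 48 for knockdown over sham, 41. Among the calls lost without some library were Kcna5, Kcnab3os, Kcne1l, Kcne4, Kcnip2, Kcnj16, Kcnj5 and Kcnn1 for control oligo, and Kcna2, Kcna6, Kcne1l, Kcnip2, Kcnmb4, Kcns2 and Kcnt1 for knockdown. No call changed sign in these runs.

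Among the genes recomputed one by one for their size of change or level, signs of control oligo over sham turned for Kcnf1 (-0.0154 scaled, -0.16 over nuclear protein-coding genes), Kcnn2 (-0.0105 over nuclear protein-coding genes) and Kcnu1 (-0.0174 scaled, -0.12 over nuclear protein-coding genes). Over all 77 genes, positive changes numbered 49 on TPM and 35 after scaling, and those called higher on TPM with another sign after scaling were Kcnf1, Kcnip2 and Kcnn1. Kcnh3 ran from -0.13 to 0.0663 with 1 library left out. The cause of these single-gene differences was not tested.

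With the replicate number as a block the counts were 0 and 0 for knockdown over control oligo, 36 higher and 22 lower for control oligo over sham, and 37 and 21 for knockdown over sham. Same-numbered libraries did not deviate together (correlations of -0.071 to 0.231), so the numbers are not read as pairs. With 3 libraries a group and no read counts, the median half-width of 0.616 on the log2 scale sets what could be seen between the oligos.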
